A study of Mus musculus with 6 samples.

Results

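This account covers 10 mouse genes of MHC class I antigen presentation: the heavy chain genes H2-K1, H2-D1, H2-Q4, H2-Q6, H2-Q7, H2-T22, H2-T23 and H2-M3, the light chain gene B2m, and Nlrc5. They were taken by symbol from a deposited count table of 15836 genes, and all 10 had a row and passed the filter on low counts. RNA was sequenced from cultured cells of a line labelled CAF, a usual abbreviation for cancer-associated fibroblast, with pancreatic tumour as the tissue. The MAOA-KO group (3 libraries) is labelled as a knockout of Maoa, whose mitochondrial product oxidises serotonin and noradrenaline, and its treatment field gives the same knockout, although a description field has knockdown. The control group (3 libraries) is labelled wild type, with control as its treatment. The labels name neither the mouse strain nor whether the MAOA-KO cells are 1 clone. They also do not say whether replicates are separate cultures, so p-values measure the spread between these 6 libraries.

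MHC class I molecules carry peptides made inside the cell to its surface, where CD8 T cells and natural killer cells read them. A heavy chain pairs with beta-2 microglobulin in the endoplasmic reticulum and receives its peptide from the TAP transporter with the help of tapasin, calreticulin and ERp57. Nlrc5 is a transcriptional coactivator that is brought to class I promoters by the RFX, CREB and NF-Y factors bound at the X and Y boxes, while NF-kB and interferon regulatory factors act at elements upstream of these.

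The heavy chain genes lie on chromosome 17 and are close copies of each other, and the stretch below shows how close. It is taken from exon 4, which is coding throughout and 276 bases long in all 8 genes, from GENCODE M21 transcripts (GRCm38). Letters that differ from H2-K1 are in capitals.
H2-K1, chr17:33997381-33997440, minus strand: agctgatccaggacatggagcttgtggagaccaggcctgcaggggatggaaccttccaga
H2-D1, chr17:35265904-35265963, plus strand: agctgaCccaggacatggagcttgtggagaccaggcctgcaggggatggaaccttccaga
H2-Q4, chr17:35382978-35383037, plus strand: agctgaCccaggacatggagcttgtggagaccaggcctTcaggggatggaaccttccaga
H2-M3, chr17:37272389-37272448, plus strand: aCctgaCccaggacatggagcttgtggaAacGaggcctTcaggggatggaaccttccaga
H2-Q6, H2-Q7, H2-T22 and H2-T23 had the same 60 letters as H2-D1 here. A read lying wholly within this stretch could therefore not be assigned to any 1 of these 5 genes. H2-M3 differed from H2-K1 at 5 positions.

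Over the whole of exon 4 H2-Q6 and H2-Q7 were identical at 99.3% of positions, with a longest run of 265 identical bases between their transcripts. H2-K1 and H2-D1 were identical at 96.0% of the exon, with a longest run of 91 bases, and H2-K1 and H2-M3 at 84.8%, with a longest run of 39. Of all 100-base windows of the coding transcript, 16.4% for H2-Q7, 14.2% for H2-T22 and 10.8% for H2-Q6 also occurred in a transcript of another gene. For H2-T23, H2-D1 and H2-Q4 these shares were 7.28%, 4.64% and 2.66%. No 100-base window of H2-K1, H2-M3, B2m or Nlrc5 was shared. With 50-base windows the share reached 44.7% for H2-T22, mostly with H2-T10, and with 150-base windows the highest was 9.68%, for H2-Q7. The sources used here give neither the read length nor what was done with reads that match several genes. How counts were split among H2-Q4, H2-Q6, H2-Q7, H2-T22, H2-T23 and H2-D1 is therefore uncertain. If reads were as short as 50 bases this also holds for H2-K1. Of its 50-base windows 8.79% were shared, 6.94% with H2-D1. The annotation is that of C57BL/6J mice, and the part that another class I haplotype could have in the counts was not tested.

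**Figure D1:**
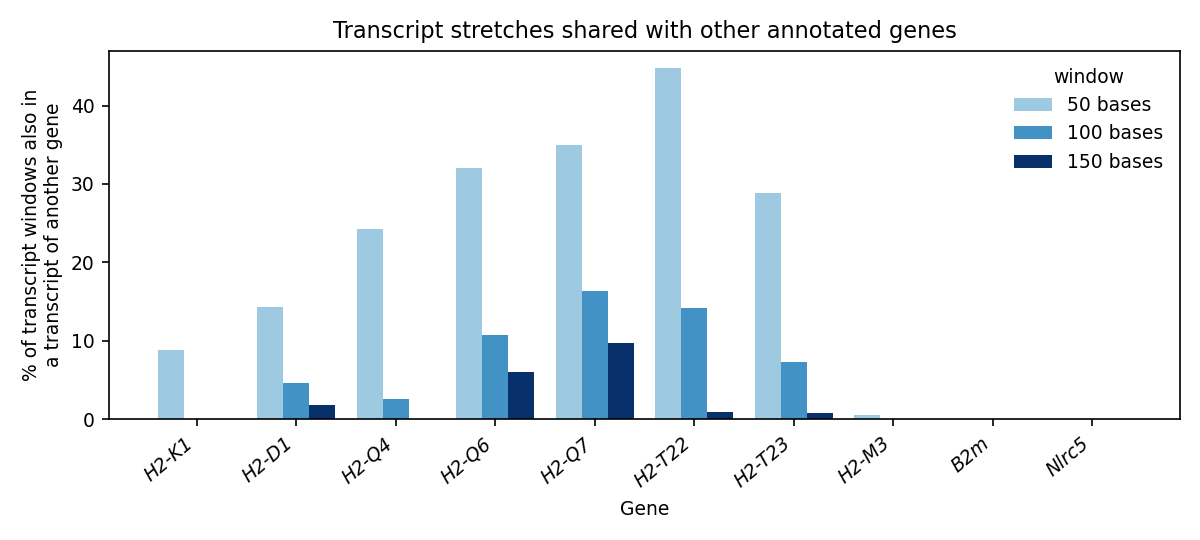
Share of overlapping 50-, 100- and 150-base windows of each gene's longest protein-coding transcript (y axis, %) that also occur in an annotated transcript of another gene. Bars are highest for H2-T22, H2-Q7 and H2-Q6, and no bar is drawn for B2m and Nlrc5, which share none.

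The promoters are shown because these genes are known to share regulatory elements and most of the 10 moved together. Sequences are RefSeq's for GRCm38.p6, in windows of 300 bases that lie mostly upstream of the start, and were matched for 9 genes, all but Nlrc5. The letters searched, on both strands, were GGG and TTCCC with any 2 bases between them for a kB site, GAAGTGAAA for the core of the class I interferon consensus sequence, TGNTGAC for the X2 type of element and CCAAT for the Y type. They were chosen with these promoters in view. No motif is part of another. Capitals mark the matches, with 6 bases kept on either side, and 1 more Y match of H2-T22 and of H2-M3 lies upstream of the stretch shown.
H2-K1, chr17:34000329-34000464, minus strand: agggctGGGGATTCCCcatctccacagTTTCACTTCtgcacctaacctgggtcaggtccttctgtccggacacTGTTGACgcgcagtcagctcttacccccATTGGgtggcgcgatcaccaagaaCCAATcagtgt
H2-Q6, chr17:35424671-35424805, plus strand: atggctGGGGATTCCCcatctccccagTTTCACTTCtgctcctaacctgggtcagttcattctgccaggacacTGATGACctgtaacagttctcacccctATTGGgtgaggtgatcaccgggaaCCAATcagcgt
H2-M3, chr17:37270127-37270223, plus strand: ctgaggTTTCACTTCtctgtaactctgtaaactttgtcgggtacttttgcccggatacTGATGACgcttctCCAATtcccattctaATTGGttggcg
H2-T22, chr17:36042795-36042891, minus strand: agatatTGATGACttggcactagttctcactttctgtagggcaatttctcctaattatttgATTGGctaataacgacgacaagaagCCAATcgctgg
B2m, chr2:122147600-122147644, plus strand: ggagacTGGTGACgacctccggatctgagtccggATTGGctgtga
All 4 matches were present in H2-K1, H2-D1, H2-Q4, H2-Q6 and H2-Q7, and these were the only 5 of 27025 promoters of this length that held all 4. In these 5 the interferon core began 46 bases before the X2 match, and the kB match 66 or 67 bases before it. H2-M3 had 3 of the 4 matches and no kB match, and its interferon core began 52 bases before the start of the X2 match. H2-T22, H2-T23 and B2m had X2 and Y matches only. In B2m, H2-K1, H2-D1, H2-Q4 and H2-M3 a Y match began 28 bases after the X2 match. In H2-T23 the X2 match lay on the opposite strand, downstream of the Y match. Over all promoters the kB letters occurred in 1.66%, the interferon core in 0.522%, the X2 letters in 14.2% and the Y letters in 37.9%. These are matches of letters and not measured binding.

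Library totals were 18631359 to 26645441 counts in MAOA-KO and 23735244 to 25116027 in control. Levels below are CPM, counts scaled by library total and by factors of the trimmed-mean method (TMM), and a level of 0.110 to 0.156 CPM is what 3 counts give. These floors cover counting error only. The row named Maoa averaged 24.9 ± 0.639 CPM in MAOA-KO and 49.0 ± 0.922 CPM in control (SD, n = 3 each). It lists a locus on chromosome 19 that is not the annotated locus of the row's gene identifier, so it does not serve as a check of the labels. All 10 class I genes list their own locus. Of 10 fibroblast markers, 7 lay under 3 CPM in every library, Lum had no row, and Vim and Col3a1 were above 100 CPM. Vim averaged 1789 ± 30.1 CPM in MAOA-KO and 3426 ± 73.8 CPM in control, and the keratin gene Krt8 453.1 ± 15.96 CPM in MAOA-KO and 864 ± 35.5 CPM in control. Most defining fibroblast markers, Pdgfra, Pdgfrb, Thy1, Fap, Dcn and Col1a1 among them, were thus near absent, against the labelled cell type. Of 6 epithelial markers 2, Epcam and Cdh1, also lay under 3 CPM in every library. Krt7 averaged 1.95 CPM in MAOA-KO and 13.6 CPM in control. Krt18 averaged 710 CPM in MAOA-KO and 927 CPM in control, and Krt19 86.3 CPM in MAOA-KO and 351 CPM in control. The 9 fibroblast markers with a row summed to 1901 to 1957 CPM in MAOA-KO and 3467 to 3609 CPM in control. The 6 epithelial markers summed to 1212 to 1284 CPM in MAOA-KO and 2102 to 2232 CPM in control, mostly from Krt8, Krt18 and Krt19. The part that these differences have in the results was not tested. In bulk RNA, fewer cells of a type and less RNA per cell cannot be told apart.

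The study's title concerns immune exclusion by MAOA-positive fibroblasts, and the comparison asks what the loss of Maoa changes in such cells. Of the 10 genes 9 rose and 1, H2-M3, fell in MAOA-KO, at an adjusted p under 0.05 in edgeR's quasi-likelihood test over 13243 genes. The background is broad: 73.9% of all genes tested were called, 37.0% higher and 36.9% lower. The median log2 fold change of the 10 was 0.80, against 0.00 over all genes tested. At least 2-fold rises were called for 4 of the 10, against 7.47% of all genes, and no such fall, against 6.56%. Tested against a 1.2-fold change 8 were higher and 1 lower, against 23.6% and 22.3%. The libraries of the groups did not overlap for any of the 10, 9 higher and 1 lower, against 75.1% of all genes, 37.7% higher and 37.5% lower. An exact two-sided permutation test over the libraries gave p = 0.1 for each gene, the smallest that 3 against 3 allow.

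**Figure D2:**
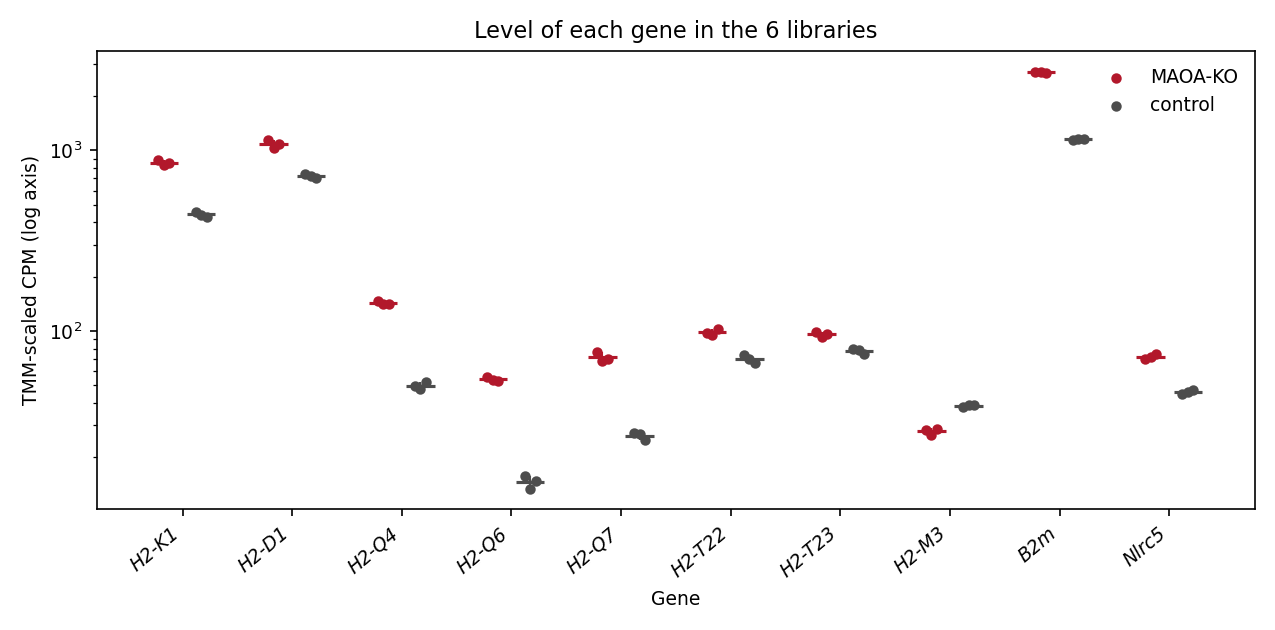
TMM-scaled CPM (log axis) of each gene in the 3 MAOA-KO and the 3 control libraries, with points for libraries, horizontal lines for means and vertical lines for SD. The MAOA-KO points lie above the control points for 9 genes and below them for H2-M3.

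B2m (chr2:122147686-122153083, GRCm38, plus strand, as are all loci below unless said) encodes the light chain that every classical and most non-classical heavy chains need to reach the surface. It had 2735, 2710 and 2693 CPM in the MAOA-KO libraries, against 1149, 1158 and 1160 CPM in control libraries. All 3 MAOA-KO libraries were above all control libraries, and the libraries within a group lay close together. B2m rose 2.35-fold (log2 1.23 ± 0.03, SE, adjusted p = 4.39e-21, edgeR), above those of 94.9% of genes tested. It was also the most abundant of the 10 per length, at 3248 ± 33.5 FPKM in MAOA-KO and 1303 ± 6.61 FPKM in control (deposited values, SD, n = 3 each).

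H2-K1 (chr17:33996017-34000347, minus strand) and H2-D1 (chr17:35262730-35267499) are the classical heavy chains, which present peptides to CD8 T cells. H2-K1 had 883, 827 and 855 CPM in MAOA-KO, against 455, 441.5 and 430 CPM in control. H2-D1 had 1141, 1034 and 1091 CPM in MAOA-KO, against 736, 725 and 704 CPM in control. Both stood apart between groups, and MAOA-KO replicate 1 was the highest library for each. H2-K1 rose 1.93-fold (log2 0.95 ± 0.04, adjusted p = 7.59e-18) and H2-D1 1.51-fold (log2 0.59 ± 0.04, adjusted p = 2.27e-13, edgeR).

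The pair changed unequally, which a ratio within each library shows without any scaling between libraries. H2-K1 over H2-D1, in FPKM, was 1.00, 1.04 and 1.02 in the MAOA-KO libraries, against 0.803, 0.791 and 0.792 in control libraries. H2-D1 was thus above H2-K1 in every control library, and the ranges of their FPKM overlapped in MAOA-KO. Per length these were the highest heavy chains in both groups, at 544 ± 19.5 FPKM for H2-K1 and 533 ± 27.9 FPKM for H2-D1 in MAOA-KO. In control H2-K1 had 265 ± 7.56 FPKM and H2-D1 333 ± 7.26 FPKM (SD, n = 3 each).

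The Q region genes had the highest fold changes of the 10. H2-Q6 (chr17:35424850-35430055) and H2-Q7 (chr17:35439155-35443773) encode Qa-2 antigens, non-classical molecules of which some forms are anchored to the membrane by a lipid, and H2-Q4 (chr17:35379617-35385290) encodes another non-classical heavy chain. H2-Q6 had 55.8, 53.3 and 53.2 CPM in MAOA-KO, against 15.8, 13.4 and 14.7 CPM in control. H2-Q4 had 146, 142 and 142 CPM in MAOA-KO, against 49.9, 47.5 and 52.2 CPM in control. H2-Q7 had 77.0, 68.2 and 70.0 CPM in MAOA-KO, against 27.3, 26.9 and 24.8 CPM in control. In none of these did a MAOA-KO library come near a control library. The rises were 3.69-fold for H2-Q6 (log2 1.89 ± 0.06, adjusted p = 1.05e-19), 2.87-fold for H2-Q4 (log2 1.52 ± 0.04, adjusted p = 1.83e-20) and 2.72-fold for H2-Q7 (log2 1.45 ± 0.05, adjusted p = 5.57e-18).

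H2-Q6 and H2-Q7 share the longest stretches of sequence, and their counts relative to each other also differed. H2-Q6 over H2-Q7 counts stood at 0.725, 0.781 and 0.760 in MAOA-KO, against 0.580, 0.498 and 0.593 in control. The 3 Q genes together took 11.04%, 11.3% and 10.9% of the counts of the 8 heavy chains in MAOA-KO, against 6.30%, 6.09% and 6.52% in control. H2-K1 took 35.1% ± 0.226 in MAOA-KO and 30.7% ± 0.143 in control, and H2-D1 44.7% ± 0.461 in MAOA-KO and 50.1% ± 0.191 in control (SD, n = 3 each). The classical pair thus held about the same joint share, 79.8% ± 0.238 in MAOA-KO and 80.8% ± 0.119 in control, although these ranges did not overlap.

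**Figure D3:**
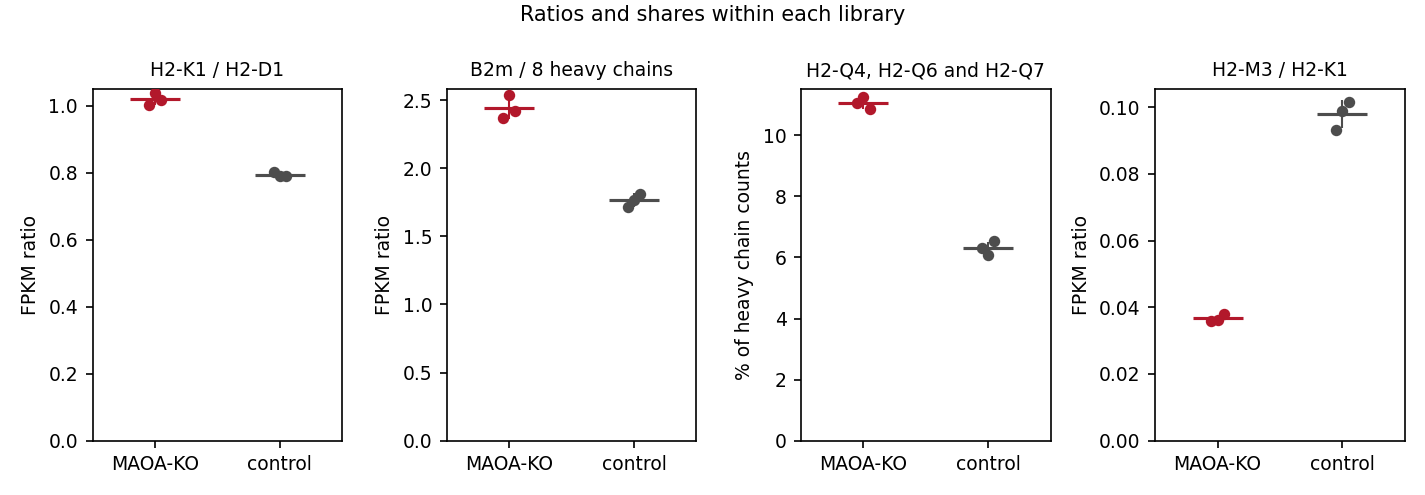
FPKM ratios and shares of counts within each library, with axes from 0, points for libraries, horizontal lines for means and vertical lines for SD, MAOA-KO left and control right. H2-K1 over H2-D1, B2m over the 8 heavy chains and the share of the 3 Q genes are higher in all 3 MAOA-KO libraries than in any control library, and H2-M3 over H2-K1 is lower.

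The T region genes of the set had the lowest fold changes of the 9 that rose. H2-T23 (chr17:36029773-36032855, minus strand) encodes Qa-1, which shows leader peptides of classical class I chains to the NKG2A receptor of natural killer and T cells. H2-T22 (chr17:36037128-36042747, minus strand) encodes a molecule that carries no peptide and is recognised by some gamma delta T cells. H2-T23 had 99.1, 92.3 and 96.1 CPM in MAOA-KO, against 79.8, 78.5 and 74.3 CPM in control. H2-T22 had 97.8, 95.5 and 102 CPM in MAOA-KO, against 73.7, 70.2 and 66.8 CPM in control. The groups were closer here than for the Q genes and still did not overlap. H2-T23 rose 1.24-fold (log2 0.31 ± 0.04, adjusted p = 7.04e-07) and H2-T22 1.40-fold (log2 0.49 ± 0.04, adjusted p = 3.84e-10, edgeR). Tested against a 1.2-fold change, H2-T23 did not pass (adjusted p = 0.120, edgeR). Within libraries, H2-T23 over H2-K1 in FPKM averaged 0.123 ± 0.000509 in MAOA-KO and 0.193 ± 0.00259 in control.

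H2-M3 (chr17:37270220-37274484), which presents N-formylated peptides of bacterial or mitochondrial origin, was the exception. It had 28.2, 26.6 and 28.8 CPM in MAOA-KO, against 37.7, 38.7 and 38.8 CPM in control. Every MAOA-KO library was below every control library. H2-M3 was 1.38-fold lower (log2 -0.47 ± 0.05, adjusted p = 1.17e-08, edgeR), and its log2 fold change was above those of 18.2% of genes tested. H2-M3 over H2-K1, in FPKM, was 0.0359, 0.0362 and 0.0379 in MAOA-KO, against 0.0933, 0.0988 and 0.102 in control. In exon 4, H2-M3 was identical to the other 7 heavy chains at 84.8% to 87.3% of positions.

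Nlrc5 (chr8:94434356-94527272) was the least abundant of the 10 per length in either group, at 9.79 ± 0.261 FPKM in MAOA-KO and 5.90 ± 0.130 FPKM in control. It had 70.4, 71.6 and 74.3 CPM in MAOA-KO, against 45.0, 46.1 and 47.0 CPM in control, with no overlap. Nlrc5 rose 1.56-fold (log2 0.64 ± 0.04, adjusted p = 1.46e-12, edgeR). An overlapping long non-coding RNA gene on the opposite strand, 9330175E14Rik, had 35 to 36 counts in MAOA-KO libraries and 25 to 40 in control libraries, where Nlrc5 had 1425 to 1958 counts in MAOA-KO and 1038 to 1148 in control. Opposite-strand genes also overlap H2-Q4 (Gm11131, at most 49 counts) and H2-T22 and H2-T23 (A930015D03Rik, at most 18 counts). The protein-coding gene Patl2 overlaps B2m on the opposite strand and had no row. Whether the counting used strand is not stated in these sources.

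Per length, in the deposited FPKM, the order in MAOA-KO was B2m, H2-K1, H2-D1, H2-T23, H2-Q4, H2-Q7, H2-T22, H2-Q6, H2-M3 and Nlrc5. In control it was B2m, H2-D1, H2-K1, H2-T23, H2-M3, H2-T22, H2-Q4, H2-Q7, H2-Q6 and Nlrc5. Among neighbours in these orders only H2-K1 and H2-D1 in MAOA-KO had overlapping ranges. H2-M3 had 19.9 ± 0.858 FPKM in MAOA-KO, below all 3 Q genes, and 25.9 ± 0.399 FPKM in control, above H2-Q6 and H2-Q7. The deposited FPKM imply lengths of 2597 bases for H2-Q4 and 3063 for H2-T22, those of annotated transcripts with a retained intron, where the longest coding transcripts have 1793 and 1761 bases. The order depends on this. With the coding lengths, an alternative chosen after seeing the data, H2-Q4 had 82.3 ± 1.73 FPKM in MAOA-KO and 27.0 ± 1.31 FPKM in control, and H2-T22 57.7 ± 2.14 FPKM in MAOA-KO and 38.7 ± 1.90 FPKM in control (SD, n = 3 each). H2-Q4 then stood above H2-T23 in MAOA-KO, and in control its range overlapped that of H2-M3.

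A sum over heavy chains does not depend on how reads were divided within the set. It does depend on whether reads that match several genes were dropped or given to genes outside the set. Such genes include H2-Q1 for H2-D1 and H2-T10 for H2-T22, and what was done with these reads is not known. The 8 heavy chains summed to 2528, 2339 and 2439 CPM in MAOA-KO, against 1475, 1441.5 and 1406 CPM in control, 1.69-fold higher (log2 ratio of means 0.76). With all 15 class I heavy chain rows of the table the ratio was again 1.69-fold. B2m FPKM over the summed FPKM of the 8 heavy chains stood at 2.37, 2.54 and 2.42 in MAOA-KO, against 1.71, 1.76 and 1.81 in control, higher in every MAOA-KO library. With the coding lengths the ratio averaged 2.36 ± 0.0815 in MAOA-KO and 1.71 ± 0.0497 in control.

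**Figure D4:**
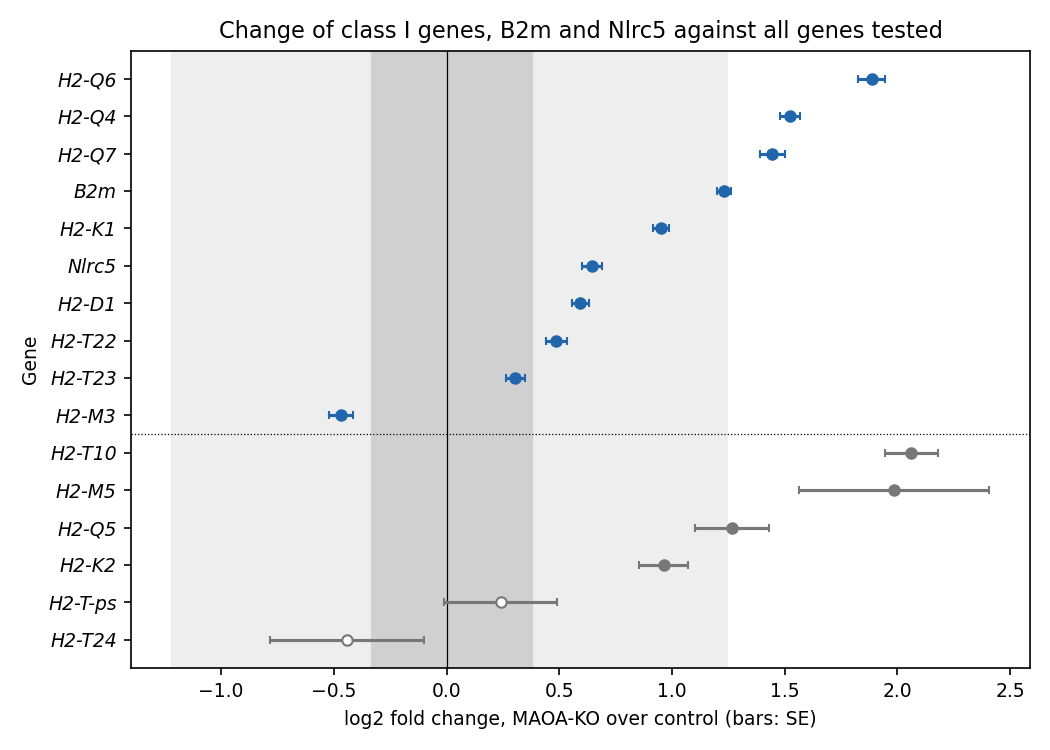
log2 fold change (MAOA-KO over control, bars SE) of the 10 genes, above the dotted line, and of 6 other class I heavy chain genes below it, with filled points for an adjusted p under 0.05. The dark band holds the middle 50% of all genes tested and the light band the middle 90%, from -1.22 to 1.24. H2-Q4, H2-Q6 and H2-Q7 of the 10 genes lie above the light band, as do H2-T10, H2-M5 and H2-Q5 of the other 6.

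Among the other class I heavy chain genes, 7 of 25 listed had a row and 6 were tested. Of these 4 rose and none fell, where 37.0% of all genes were called higher and 36.9% lower. The median was 1.12 on the log2 scale. H2-T10, a near copy of H2-T22 also seen by gamma delta T cells, averaged 8.45 ± 0.286 CPM in MAOA-KO and 2.02 ± 0.170 CPM in control (SD, n = 3 each). H2-T10 rose 4.18-fold (adjusted p = 2.94e-14, edgeR). Of the 50-base windows of H2-T22 37.9% also occur in H2-T10, so how counts were split between these genes is uncertain. By the listed gene types H2-T10, H2-Q5 and H2-Bl are polymorphic pseudogenes, H2-K2 a transcribed pseudogene and H2-T-ps a pseudogene. H2-K2 and H2-Q5 rose 1.95-fold and 2.41-fold, and H2-M5 rose as well, with 15, 14 and 10 counts in MAOA-KO and 3, 4 and 3 counts in control. H2-T24 and H2-T-ps did not pass, with log2 fold changes of -0.44 ± 0.34 and 0.24 ± 0.25. H2-Bl was not tested, with 5, 4 and 2 counts in MAOA-KO and 11, 16 and 3 counts in control, and without MAOA-KO replicate 1 or control replicate 3 it was tested and called lower (log2 -1.67 and -1.81).

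Genes of class I peptide supply and loading were split. Of 15 tested 8 rose, 3 fell and 4 did not pass, where 37.0% of all genes were called higher and 36.9% lower. The median was 0.13 on the log2 scale. One of the 8, the aminopeptidase gene Lnpep, had 0.22 and turned to -0.10 with GC and length correction, as the count of lower genes went to 5. The immunoproteasome subunits Psmb8 and Psmb9 rose 2.22-fold and 2.40-fold, and Erap1, which trims peptides in the endoplasmic reticulum, rose 2.28-fold. Psmb10, the third inducible subunit, averaged 41.4 ± 0.526 CPM in MAOA-KO and 39.9 ± 0.862 CPM in control and did not pass (adjusted p = 0.345, edgeR). With library totals only and with GC correction Psmb10 did pass, at log2 fold changes of 0.14 and 0.13.

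The transporter subunits moved by different amounts. Tap2 averaged 40.2 ± 2.28 CPM in MAOA-KO and 23.2 ± 0.777 CPM in control (SD, n = 3 each) and rose 1.73-fold (adjusted p = 2.28e-12, edgeR). Tap1 had 62.7, 61.6 and 59.4 CPM in MAOA-KO, against 48.9, 50.3 and 48.7 CPM in control, and rose 1.24-fold (adjusted p = 6.96e-07). Neither gene's groups overlapped, but Tap1 did not pass against a 1.2-fold change (adjusted p = 0.0883, edgeR). Tapbp, which encodes tapasin, rose 1.63-fold (adjusted p = 5.07e-13, edgeR).

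Among the general chaperones of the loading complex 2 fell and 1 did not pass. Calr, calreticulin, averaged 1632 ± 27.0 CPM in MAOA-KO and 2533 ± 96.0 CPM in control and fell by 0.63 ± 0.03 on the log2 scale (adjusted p = 1.38e-14, edgeR). Pdia3, which encodes ERp57, fell by 0.22 ± 0.03 (adjusted p = 2.50e-06), but did not pass against a 1.2-fold change (adjusted p = 0.906, edgeR). Canx, calnexin, had a log2 fold change of 0.04 ± 0.04 and did not pass, but was called at -0.17 with GC and length correction and at 0.13 with library totals only. Tapbpl, a tapasin-related peptide editor, fell by 0.15 ± 0.06 on that scale (adjusted p = 0.0206, edgeR). This call was lost with DESeq2, upper-quartile factors, library totals only or GC correction, and without MAOA-KO replicate 2, MAOA-KO replicate 3 or control replicate 2, with values from -0.17 to -0.13 over the libraries left out.

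**Figure D5:**
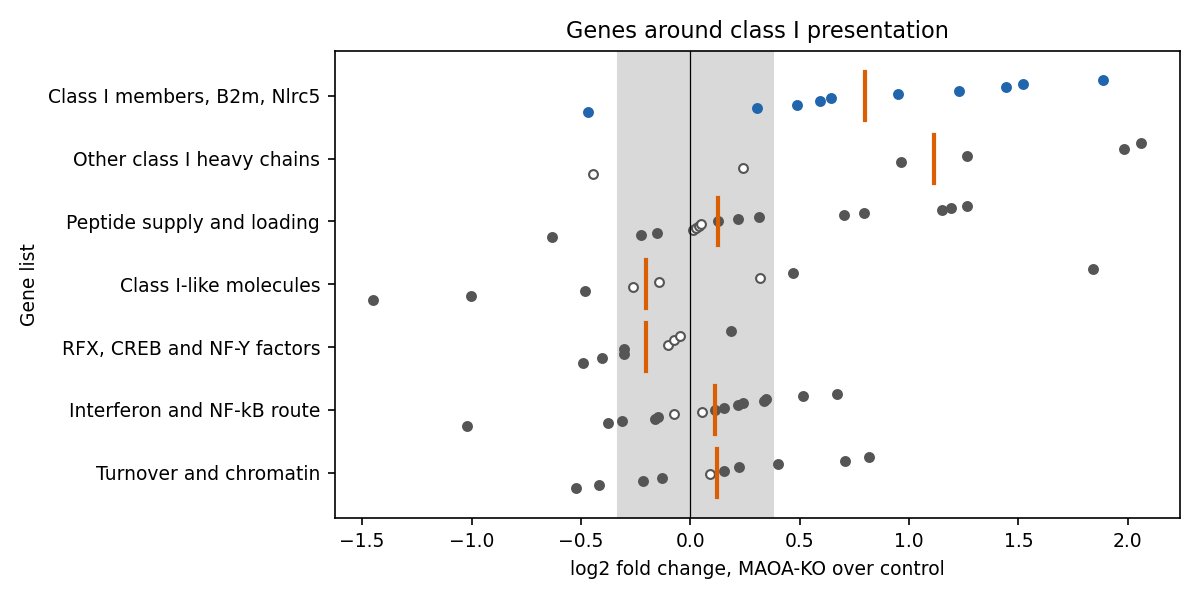
log2 fold change (MAOA-KO over control) of the tested genes of 7 lists, with filled points for an adjusted p under 0.05, open points for the rest, orange lines for list medians and a grey band for the middle 50% of all genes tested. The top list has its median at 0.80, and the list of RFX, CREB and NF-Y factors has its median at -0.20.

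Of the 8 factors known to bring Nlrc5 to class I promoters 1 rose, 4 fell and 3 did not pass, where 37.0% of all genes were called higher and 36.9% lower, and the median was -0.20 on the log2 scale. Nfyb and Nfyc, subunits of the factor that binds the Y box, were 1.40-fold and 1.32-fold lower. The third subunit, Nfya, rose 1.14-fold (log2 0.19 ± 0.05, adjusted p = 0.000825, edgeR). Rfx5 fell by 0.30 ± 0.06 on the log2 scale (adjusted p = 6.20e-05), while Rfxap and Rfxank, its partners, had -0.07 ± 0.08 and -0.10 ± 0.08 and did not pass. Creb1 had -0.04 and did not pass, but was called at -0.37 with GC and length correction. Of this list only Nfyb and Nfyc passed against a 1.2-fold change.

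On the route by which interferons and NF-kB raise class I, 8 of 15 tested genes rose, 5 fell and 2 did not pass. Over all genes 37.0% were called higher and 36.9% lower, and the median of this list was 0.11. Stat2 averaged 105.6 ± 1.38 CPM in MAOA-KO and 66.3 ± 0.972 CPM in control, 1.59-fold higher (adjusted p = 9.26e-14, edgeR). Irf1, an activator of class I and Nlrc5, had 67.8, 65.8 and 68.1 CPM in MAOA-KO, against 56.8, 55.5 and 58.0 CPM in control. Irf1 rose 1.18-fold (adjusted p = 2.09e-05), but did not pass against a 1.2-fold change (adjusted p = 0.637, edgeR). The receptor genes Ifngr2 and Ifnar2 rose 1.43-fold and 1.27-fold, and the kinase gene Jak1 1.26-fold. Of these Ifnar2 did not pass against a 1.2-fold change (adjusted p = 0.0522, edgeR). Socs1, an inhibitor of this signalling, was 2.03-fold lower, at 1.22 ± 0.215 CPM in MAOA-KO and 2.44 ± 0.150 CPM in control. Tyk2 and Nfkb1 fell by 0.31 ± 0.05 and 0.15 ± 0.04, the second a call lost with library totals only. Neither fall passed against a 1.2-fold change.

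Genes that act on class I after synthesis, or on chromatin at class I loci, moved both ways. Of 10 tested 5 rose and 4 fell (median 0.12), where 37.0% of all genes were called higher and 36.9% lower. One of the 5, the protease gene Sppl2a, had 0.16 and turned to -0.14 with GC and length correction. Susd6, whose product is known to promote loss of surface class I, rose 1.63-fold (adjusted p = 4.78e-14, edgeR), and Wwp2, a ubiquitin ligase reported to act with it, was 1.34-fold lower. Tmem127, reported as the third partner, is left out because the row of that name lists a locus other than the annotated one. The ubiquitin ligase genes Marchf9 and Marchf8 rose 1.76-fold and 1.17-fold. Marchf8 did not pass against a 1.2-fold change (adjusted p = 0.864, edgeR). Ezh2 and Eed, of the Polycomb complex that can silence class I genes, fell by 0.52 ± 0.05 and 0.22 ± 0.05. Eed did not pass against a 1.2-fold change (adjusted p = 0.839, edgeR). Suz12 of the same complex had a log2 fold change of 0.09 ± 0.04 and did not pass (adjusted p = 0.0559, edgeR), but was called with the replicate number as a block (adjusted p = 0.00333) and turned to -0.13 with GC and length correction.

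Class I-like molecules outside this set moved both ways: of 8 tested 2 rose, 3 fell and 3 did not pass (median -0.20). The shares over all genes were 37.0% higher and 36.9% lower. Mr1, which shows microbial vitamin B metabolites to MAIT cells, averaged 14.6 ± 1.45 CPM in MAOA-KO and 4.06 ± 0.498 CPM in control and rose 3.58-fold (adjusted p = 2.10e-14, edgeR). Fcgrt, the neonatal Fc receptor heavy chain, rose 1.39-fold. Procr, the endothelial protein C receptor, was 2.73-fold lower. Raet1e and Ulbp1, ligands of the activating receptor NKG2D on natural killer cells, were 2.00-fold and 1.40-fold lower.

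Genes of MHC class II had few or no counts. Ciita, the class II counterpart of Nlrc5, and H2-Aa, H2-Ab1 and H2-Eb1 had no row in the table and were not analysed here. Cd74, the invariant chain, had 2, 4 and 1 counts in MAOA-KO libraries, against 17, 9 and 13 in control libraries, too few to be tested. Of 2 class II genes tested 1 rose and 1 did not pass, where 37.0% of all genes were called higher and 36.9% lower. H2-DMb1 had 15, 34 and 16 counts in MAOA-KO, against 3, 3 and 0 in control (adjusted p = 7.64e-07, edgeR). H2-DMa had 24, 17 and 12 counts in MAOA-KO, against 11, 14 and 25 in control, and did not pass (adjusted p = 0.688, edgeR). Of 12 markers of antigen-presenting cells and leukocytes only Cd74 and Flt3 had a row, and both summed to 2.16 to 2.50 CPM in MAOA-KO libraries and 2.47 to 3.298 CPM in control libraries. Ptprc, the pan-leukocyte marker, was among those with no row.

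The genes whose profiles over the 6 libraries lay nearest to that of B2m, among 9885 protein-coding genes averaging 5 CPM or more, were Lamp1, Sc5d and Ctsa. Their Euclidean distances in log2 CPM, each gene taken relative to its control mean, were 0.0565, 0.0881 and 0.106. For Nlrc5 they were Trim37, Ccdc91 and Zfyve1, at 0.0333, 0.0354 and 0.0582. With 2 groups, such a distance mostly reflects a similar fold change.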

How the data were processed

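The deposited table holds whole-number read counts per gene and library and FPKM by the authors, per the file headers. It also holds the authors' log2 fold change, p-value, adjusted p-value and −log10 of both, per the file headers, which were not used. The build is GRCm38.p6 per the file headers and mm10 per the submitters' processing notes. Aligner, counter, read length and strand setting: not given in the sources used here. Small RNA enrichment is mentioned in the labels' extraction text. No row totals under 10 counts, so a filter had been applied before deposit.

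Counts were tested with edgeR 4.0.16 in R 4.3.3: filterByExpr (13243 genes kept), TMM factors, robust quasi-likelihood fit with group as its term, Benjamini-Hochberg adjustment over all genes tested at 0.05. The SE is log2 fold change over the root of F. DESeq2 1.42.0, other scalings and filters, a 1.2-fold test, the replicate block and leaving out each library were alternatives, and GC and length correction was chosen after seeing the data. The code was tested on simulated data. Replicates of a group are not copies of 1 library (chi-square per gene 2.10 to 4.91). In 4 rows, among them Maoa and Tmem127, the listed locus is not the annotated one of the row's identifier. Tmem127 was left out of the lists.

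The genes, lists and motifs were chosen with earlier results of these data known. Beyond the 10 genes, up to 4 called genes per list and direction were named by lowest p, with Tap1, Tap2, Tapbp, Irf1 and Ciita for their role and the 3 genes nearest in profile to B2m and to Nlrc5. Psmb10, Canx, Lnpep, Sppl2a, Creb1, Rfxap, Rfxank, Suz12, H2-T24, H2-T-ps, H2-Bl, H2-DMa, Cd74 and the markers named in the text were chosen after their values were seen. One gene that this rule names is not reported here.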

Additional observations from a re-analysis of the deposited data

How the results depend on the processing

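Over 16 alternatives the 10 genes kept direction and side of the threshold in 159 of 160 repeats, and log2 fold changes of B2m ranged from 1.06 to 1.32. The exception was H2-T23, at 0.31 against a 1.2-fold change (adjusted p = 0.120, the highest over its alternatives, edgeR). Against that fold 3120 genes were higher and 2959 lower, as were 5 and 1 of the loading list, 0 and 2 of the promoter factors, 3 and 2 of the interferon and NF-kB route, and 3 and 2 of the turnover list. With library totals only, 3 of the interferon route were lower and the summed heavy chains had a log2 ratio of 0.84, as the median of all genes moved to 0.09. GC and length correction gave 5 lower loading genes, 5 also with the replicate block. It turned Lnpep to -0.10, Sppl2a to -0.14, Canx to -0.17, Ide to -0.17, Jak2 to -0.13 and Suz12 to -0.13. With the replicate block as well these were -0.10, -0.14, -0.17, -0.17, -0.13 and -0.13, and the cause was not tested. With no filter 1 other class I gene (H2-Bl) and 1 class II gene (Cd74) were lower, Cd74 also with DESeq2 (1 lower), since the filter had left them out. Without 1 library both counts of lower genes lay between 0 and 1. With a mean of at least 1 CPM 0 class II genes were higher, since H2-DMb1 was then not tested.

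Deviations of same-numbered replicates correlated at 0.0346 to 0.0880 over all genes tested, and at 0.330, 0.195 and 0.169 over the 10075 genes averaging 5 CPM or more, a check added after seeing the data. Control replicate 3 correlated best with MAOA-KO replicate 2 (0.222), so whether the numbers pair the libraries is uncertain. The replicate block gave 5099 higher and 5106 lower genes and changed no call of the 10 genes. Depth limits genes near 0.110 to 0.156 CPM.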
